A study of Saccharomyces cerevisiae with 8 samples.

Results

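The data compared here are the transcript levels of Saccharomyces cerevisiae cells with a mutant TFIIB and of control cells, both grown without hydrogen peroxide (H2O2). They comprise 4 of the 8 arrays of the series, chosen by their titles: 2 arrays labelled mutant and 2 labelled control. All cells were of the laboratory strain CENPK.2-1C, grown in the rich glucose medium YPD and collected in exponential phase at an OD600 of 1.0. The mutant is called M1 in the series title, and neither the amino acid change nor the way the gene was introduced or the control was built is given in the sources used here. The series describes the 2 samples of each group as biological replicates. All 8 arrays lay on 1 slide read in 1 scan, and on the slide the columns go with the strain, so slide position and strain cannot be told apart.

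TFIIB, the product of SUA7, is a general transcription factor: it binds the TATA-binding protein on the promoter, recruits RNA polymerase II and takes part in choosing the transcription start. It is essential in yeast, and every protein-coding gene of the nucleus is transcribed by RNA polymerase II. Messages from the mitochondrial genome are made by a separate polymerase that does not use TFIIB. A comparison of the mutant with the control asks which transcripts keep or lose their signal when TFIIB is altered.

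Total RNA was labelled with Cy3 and hybridised to Agilent arrays with 6256 gene probes for 6225 genes, each spotted 2 times. The signal of a probe is the scanner software's background-subtracted intensity, here called units. On the control arrays the median probe gave 6022 and 5957 units, and on the mutant arrays 7.23 and 6.19 units. The software marked 94.7% and 95% of probes on the control arrays as well above background, and 41.2% and 25.2% on the mutant arrays. Agilent's added control transcripts, the E1A spike-ins, showed no such gap: the geometric mean of 7 E1A probes was 3026 and 3317 units on the control arrays and 4693 and 3209.8 units on the mutant arrays. Negative control spots had a median of 12.3 and 11.5 units on the control arrays and of 1.47 and 1.75 units on the mutant arrays. The mark for "well above background" accordingly began at 60.4 and 56.6 units on the control arrays, but at 7.15 and 8.0 units on the mutant arrays. The mutant arrays therefore carried spike-in signal at the level of the controls and yeast signal mostly near background. How this low yeast signal bears on the differences between genes below was not tested.

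**Figure D1:**
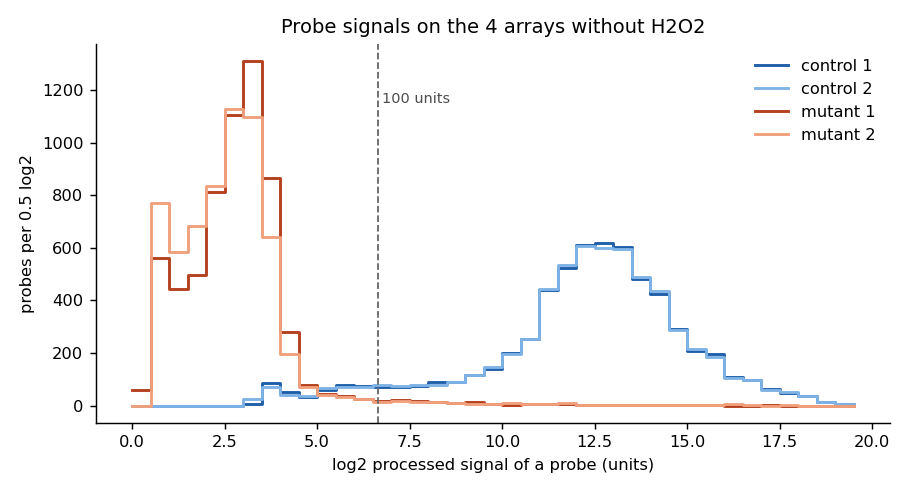
Number of probes (y axis, per 0.5 log2) by log2 processed signal (x axis, units before scaling) for each of the 4 arrays. The 2 control arrays lie around medians of 6022 and 5957 units, and the 2 mutant arrays lie around 7.23 and 6.19 units with few probes right of the dashed line at 100 units.

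SUA7 itself (YPR086W, chromosome XVI, 710101 to 711138 on the plus strand, R64-1-1) gave 30808 and 24617 units on the control arrays and 6.08 and 6.35 units on the mutant arrays. Both mutant values were not well above background, so the probe was among those that lost signal. Since 56.4% of the probes measured in the control did the same, and since a changed base need not alter a probe's signal, the value does not check the labels. The text therefore speaks of the arrays labelled mutant, or mutant arrays for short.

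Of 5918 probes well above background on both control arrays, 1428 (24.1%) were so on both mutant arrays, 1153 (19.5%) on 1 of them and 3337 (56.4%) on neither. They are called kept, partly kept and lost below. With mutant replicate 1 alone, that is without mutant replicate 2, the number kept was 2485. Most kept probes were dim: 1007 of the 1428 (70.5%) gave under 20 units on both mutant arrays, and their median was 14.1 units in the mutant against 7925 in the control. At least 100 units on both mutant arrays, which lies above the lowest well-measured control signals, were reached by 123 probes (2.08% of the 5918). These 123 are called bright here, and all were kept. How much labelled yeast RNA each array received was not tested, so a lost signal is not by itself a lost transcript. In a bulk culture, fewer cells with a transcript and less transcript per cell cannot be told apart either.

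Sizes are given only for probes well above background on all 4 arrays, as log2 of mutant over control after scaling each array on the E1A probes, ± the standard error of limma's fit with n = 2 arrays per group. The median change of the 1428 kept probes was -9.0, with quartiles of -10.46 and -7.46 and extremes of -15.56 and 2.44. The 123 bright probes had a median of -5.17, but they were chosen by their mutant signal, which by itself favours a smaller fall. Over all 6075 probes tested the median was -10.19, and most of these were not well above background on both mutant arrays. At an adjusted p under 0.05 (limma, Benjamini-Hochberg), 6051 of 6075 probes were lower in the mutant (99.6%) and 3 were higher (0.0494%). With nearly every probe called, a single call says little about a gene, and the results below turn on how far a gene stood from this common shift. The shift was also there with no scaling, where the median of all tested probes was -9.89 with 6045 lower and 3 higher, and with all E1A probes, where it was -9.86. Scalings that centre every array on its own yeast probes remove it by construction: dividing each array by its 75th percentile moved that median by 10.83 to 0.64, and then 1745 probes were lower and 3076 higher. Quantile normalization moved it by 10.16 and gave 2015 lower and 2139 higher. Every direction below is on the E1A scale. Scaling by a single factor per array moves all changes alike, so the order of genes by their change is the same on the E1A and the 75th percentile scale.

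**Figure D2:**
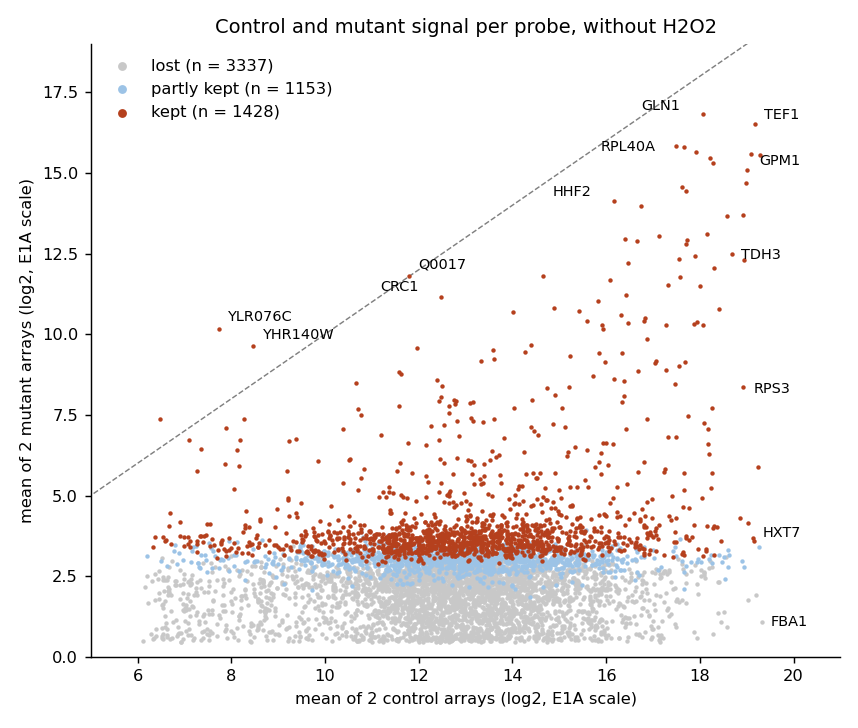
Mean of 2 mutant arrays (y axis) against mean of 2 control arrays (x axis), both log2 on the E1A scale, for the 5918 probes measured in the control, with equality dashed. The 3337 lost probes fill the bottom of the plot at every control level, and GLN1, TEF1, RPL40A and few others lie near the line, as does Q0017, on this scale only.

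Among the most abundant control messages, more kept signal than elsewhere, yet many of the very brightest lost it. Genes were ranked by their control signal, which depends on the probe as well as on the message. Of the 50 genes at the top, 27 were kept and 15 were bright, of the top 100, 54 were kept, 18 partly kept and 28 lost, with 26 bright, and of the top 200, 97 were kept (48.5%) and 41 bright. From rank 501 to rank 5800 each set of 100 genes held 15 to 33 kept genes and 0 to 4 bright ones. Over that range the number kept thus did not follow the control level. Across the 5918 probes, control and mutant means correlated with r = 0.19 and rho = 0.08, and across the 123 bright probes with r = 0.62 and rho = 0.67. These correlations are across probes of the same 4 arrays, which are not independent replicates.

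**Figure D3:**
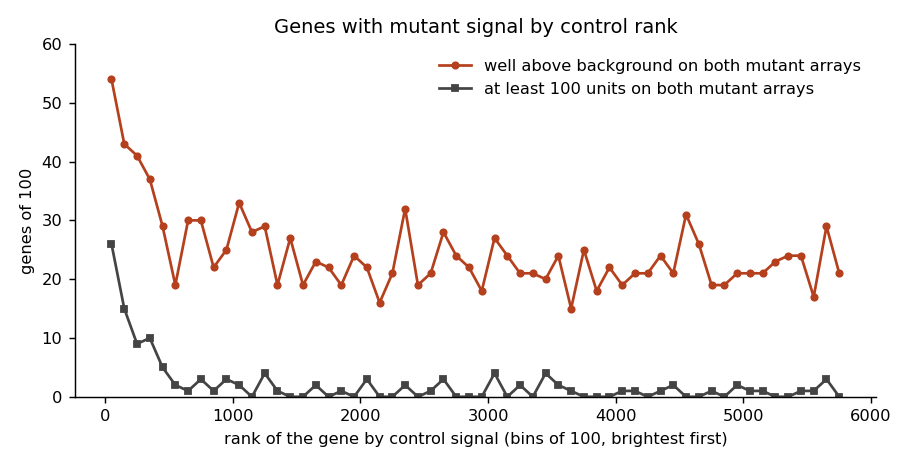
Genes of 100 that were well above background (red) or at least 100 units (dark) on both mutant arrays, by rank of the control signal from left to right. The first set of 100 holds 54 kept and 26 bright genes, and from rank 501 on the sets hold 15 to 33 and 0 to 4.

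The brightest control message of all was lost. FBA1, the aldolase of glycolysis (YKL060C, chromosome XI, 326408 to 327487, minus strand, R64-1-1), gave 585780 and 575900 units in the control and 2.22 and 2.34 in the mutant. ADH1, the alcohol dehydrogenase that makes ethanol, gave 540682 and 526310 units in the control and 5.38 and 3.14 in the mutant. RPS31, which encodes ubiquitin fused to a ribosomal protein, gave 473526 and 472847 units in the control and 2.92 and 4.52 in the mutant. These 3 probes were among the brightest on both control arrays and were not well above background on either mutant array. The others of the 10 most abundant lost genes were RPL5 and RPL4A of the large ribosomal subunit, OLE1, the fatty acid desaturase, SED1, a cell wall protein, ALD4, the mitochondrial aldehyde dehydrogenase, PSA1, which makes GDP-mannose, and YER138W-A. RPL5 gave 349222 and 347060 units in the control against 1.66 and 2.52 in the mutant, and OLE1 336890 and 328876 against 4.59 and 1.79. No size is given for these, since the mutant side was not measured.

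A further set of abundant messages passed the mutant arrays' mark only just. HXT7, a high-affinity glucose transporter, gave 523209 and 509521 units in the control and 15.3 and 11.1 in the mutant, a change of -15.56 ± 0.51. HYP2, the translation factor eIF5A, gave 518377 and 507148 units in the control and 16.3 and 12.1 in the mutant, a change of -15.45 ± 0.41. CDC19, pyruvate kinase, gave 477517 and 469732 units in the control and 24.0 and 15.4 in the mutant, a change of -14.88 ± 0.40. HXT7 and HYP2 stayed under 20 units on both mutant arrays and CDC19 on replicate 2, and for all 3 the groups were far apart (limma adjusted p of 8.79e-19, 1.16e-19 and 1.16e-19). The rest of the 10 largest falls among kept genes, from -15.14 to -14.56, were RPS12, SCW4, TMA10, BMH1, RPL12B, YDR433W and CCW12. Their mean mutant signals were only 9.43 to 21.2 units, at control ranks of 19 to 74. With mutant signal so near the mark, the size of these 10 falls mostly restates how bright the control was. OLI1, a subunit of ATP synthase encoded in the mitochondrial genome, also belonged to the 10 most abundant kept genes: it gave 558772 and 539998 units in the control and 103 and 39.2 in the mutant, a change of -13.37 ± 0.42.

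At the other end stood messages that stayed bright on both mutant arrays. GLN1, glutamine synthetase (YPR035W, chromosome XVI, 642208 to 643320, plus strand, R64-1-1), gave 243579 and 242483 units in the control and 139255 and 114451 in the mutant. It was lower on both mutant arrays by 2.36-fold, a log2 change of -1.24 ± 0.41 (limma adjusted p = 0.00622). The call was lost when control replicate 1 was left out (adjusted p = 0.0697), when the control arrays were averaged as 1 sample (0.0547) and with a variance trend (0.247). RPL40A, ubiquitin fused to a large subunit protein, gave 160985 and 166417 units in the control and 57110.1 and 71282 in the mutant, a change of -1.65 ± 0.41 (limma adjusted p = 0.000567). ATP2, the beta subunit of mitochondrial ATP synthase, gave 182190 and 183594 units in the control and 57163 and 67638 in the mutant, a change of -1.85 ± 0.41 (limma adjusted p = 0.000171). In each of these 3 the control and mutant arrays did not overlap. They were chosen as brightest on the mutant arrays, so a loss smaller than the -10.19 of the median probe was built in. With the variance trend the adjusted p was 0.103 for RPL40A and 0.0558 for ATP2.

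The remaining genes among the 10 brightest on the mutant arrays were TEF1, ECM33, GPM1, TEF2, EFT2, PET9 and YDR133C. ECM33, a cell wall protein, gave 217425 and 223064 units in the control and 38118 and 80797 in the mutant, a change of -2.28 ± 0.46. PET9, the main ADP/ATP carrier of mitochondria, gave 273536 and 288261 units in the control and 25693 and 76534 in the mutant, a change of -2.96 ± 0.51. GPM1, the phosphoglycerate mutase of glycolysis, gave 498463 and 483930 units in the control and 43358 and 65626 in the mutant, a change of -3.50 ± 0.43. All control values exceeded all mutant values, and the 2 mutant arrays differed from each other by more than the 2 control arrays did. Without mutant replicate 1 and without mutant replicate 2, the changes were -1.47 and -3.10 for ECM33, -1.89 and -4.02 for PET9, and -3.13 and -4.69 for YDR133C. YDR133C, which the authors' deposited table calls a dubious reading frame overlapping YDR134C, gave 464149 and 461535 units in the control and 26644 and 53472 in the mutant, and to which of the overlapping genes that signal belongs is uncertain. On the scale of the 75th percentile the sign of all 10 was reversed, with log2 changes from 6.92 for YDR133C to 9.59 for GLN1.

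Other bright messages with control signal far above 100 units, named after their values were seen, came from varied functions. NCW1, a cell wall protein, gave 182392 and 175213 units in the control and 17718 and 39492 in the mutant. GND1, of the pentose phosphate pathway, gave 191854 and 193358 units in the control and 7033 and 10157 in the mutant. TUP1, a general corepressor, gave 22815 and 22446 units in the control and 3014 and 4951 in the mutant. Their changes were -3.05 ± 0.47, -4.80 ± 0.42 and -2.84 ± 0.44. Of the 123 bright probes, 22 had a log2 change above -3.

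The protein synthesis genes, from lists of 80 large subunit, 57 small subunit and 34 translation factor genes, supplied 40 of the 123 bright probes. The elongation factor eEF1A, which brings charged tRNA to the ribosome, is made from TEF1 and TEF2. TEF1 gave 526728 and 522290 units in the control and 54607 and 186169 in the mutant, a change of -2.67 ± 0.53. TEF2 (chromosome II, 477671 to 479047, plus strand, R64-1-1) gave 567824 and 558202 units in the control and 28116 and 98836 in the mutant, a change of -3.71 ± 0.53. Both fell 6.37-fold and 13.1-fold on the E1A scale, but on the 75th percentile scale both were higher. Without mutant replicate 1 the changes were -1.51 for TEF1 and -2.53 for TEF2, and without mutant replicate 2 they were -3.83 and -4.89. With the variance trend the adjusted p of TEF1 was 0.0548. Of 34 translation factor genes measured in the control, 14 were kept (41.2%, beside 24.1% of all probes) and 6 were bright (17.6%, beside 2.08%). The list had a median control signal of 53455 units, so many of its genes were abundant. The bright ones were TEF1, TEF2, EFT1 and EFT2 (eEF2, which moves the ribosome along), EFB1 (the exchange factor of eEF1A) and YEF3 (a fungal elongation factor). TEF4 gave 284254 and 290494 units in the control and 20.7 and 16 in the mutant, so not every abundant elongation factor was bright.

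Of 80 genes of the large ribosomal subunit, 48 (60%) were kept, 5 partly kept and 27 lost, with 16 bright. Of 57 genes of the small subunit, 31 (54.4%) were kept, 10 partly kept and 16 lost, with 18 bright. These shares of bright genes, 20% and 31.6%, stood beside 2.08% of all probes measured in the control, and the kept shares beside 24.1%. Ribosomal protein genes are also among the most abundant. RPS2 gave 457628 and 461635 units in the control and 13135 and 61890 in the mutant, a change of -4.30 ± 0.58. RPS3 gave 439073 and 439305 units in the control and 132 and 963 in the mutant, a change of -10.56 ± 0.65. All control values exceeded all mutant values, and both genes were lower on mutant replicate 1 than on replicate 2. RPS23B and RPS22A, at -4.91 ± 0.53 and -4.91 ± 0.66, and RPS29B at -4.08 ± 0.60 were other bright small subunit genes.

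Yeast keeps many of these genes as pairs that encode the same or nearly the same protein, and in some pairs the copies differed. Of 58 ribosomal pairs, 3 had both copies bright, 21 had 1 copy bright and 34 had none. Over all 137 ribosomal protein genes, paired or not, 24.8% were bright. Whether copies differed more often than this share alone would give was not tested. In 6 pairs 1 copy was bright and the other lost, in 11 both were lost and in 20 both were kept. RPL4B gave 258994 and 254838 units in the control and 4267 and 21359 in the mutant, while its copy RPL4A gave 339475 and 340487 in the control and 12.8 and 6.62 in the mutant. RPS27B gave 168355 and 171602 units in the control and 2267 and 14041 in the mutant, while RPS27A gave 17378 and 18705 in the control and 11.7 and 7.41 in the mutant. In each pair the copy with bright mutant signal was so on both arrays, and the other copy on neither. The probes of near-identical copies can take up each other's message, so a split between copies is uncertain where their probes share sequence, which was not analysed here.

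Copies outside the ribosome, listed after the values were seen, also went apart in several cases. HHF2, 1 of the 2 genes for histone H4 (chromosome XIV, 576727 to 577038, plus strand, R64-1-1), gave 63942 and 67278 units in the control and 14674 and 25437 in the mutant, a change of -2.06 ± 0.44. HHF1, the other (chromosome II, 255373 to 255684, minus strand), gave 159722 and 161687 units in the control and 4.87 and 4.61 in the mutant. HHF2 was thus bright on both mutant arrays, and HHF1 was measured on neither. The eEF2 genes differed in size: EFT2 changed by -2.77 ± 0.54 and EFT1 by -7.77 ± 0.55. EFT2 changed by -1.58 without mutant replicate 1 and by -3.96 without mutant replicate 2. Of the enolase genes, ENO1 gave 193174 and 186536 units in the control and 14746 and 39039.7 in the mutant, whereas ENO2 gave 436670 and 429939 in the control and 10.9 and 6.63 in the mutant. PPH21, a catalytic subunit of protein phosphatase 2A, gave 27611 and 26139 units in the control and 1755 and 2216 in the mutant, and its copy PPH22 gave 13053 and 13538 in the control and 2.90 and 5.02 in the mutant. Both copies of the initiation factor eIF4A, TIF1 and TIF2, were lost.

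**Figure D4:**
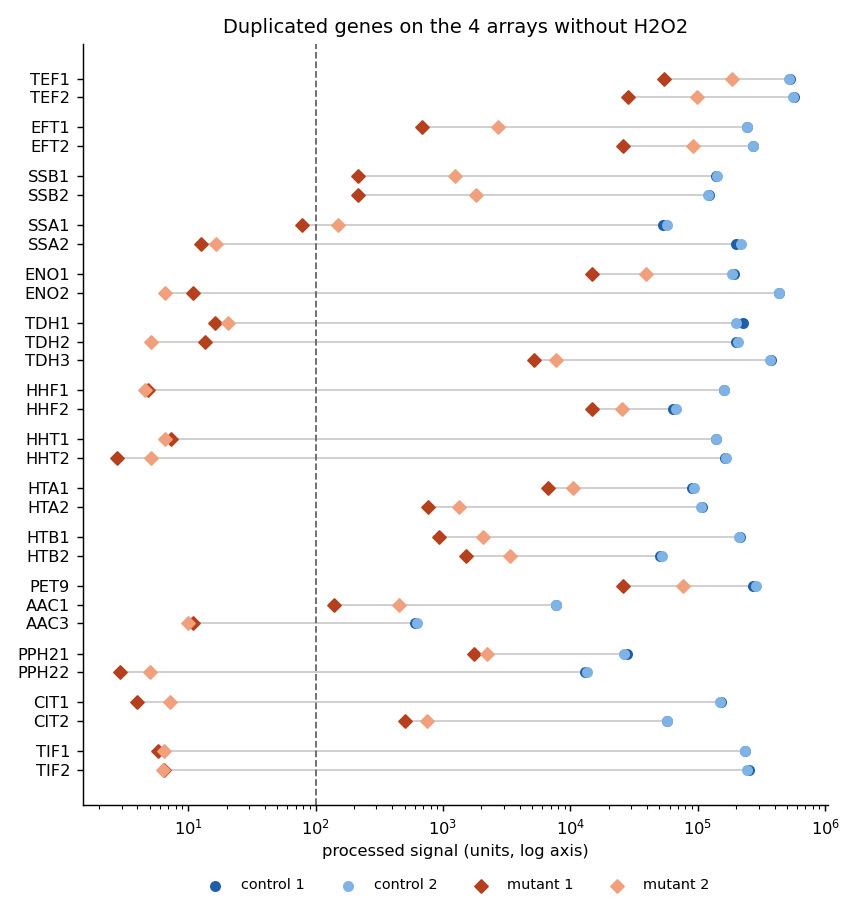
Processed signal (x axis, units, log axis) of duplicated genes on the 2 control arrays (circles) and 2 mutant arrays (diamonds), with 100 units dashed. HHF2, ENO1, PPH21 and CIT2 have mutant signal above the line, and HHF1, ENO2, PPH22 and CIT1 do not, while TIF1 and TIF2 are both near 6 units.

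Histones, which package DNA, had 11 genes measured in the control, with a median control signal of 91436 units. Of these 11, 5 were kept (45.5%, beside 24.1% of all probes) and 6 lost. All 5 kept ones were bright (45.5% of the 11, beside 2.08%). They were HTA1 and HTA2 (H2A), HTB1 and HTB2 (H2B) and HHF2. HTA1 gave 90168 and 92704 units in the control and 6649 and 10412 in the mutant, a change of -3.75 ± 0.43. HTB1 gave 215375 and 212312 units in the control and 924 and 2061 in the mutant, a change of -7.57 ± 0.47. All 4 H2A and H2B genes were bright on both mutant arrays, and neither H3 gene, HHT1 or HHT2, was measured on either.

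Glycolysis and fermentation, the main route of glucose use in this medium, had 24 genes measured in the control: 7 were kept, 10 partly kept and 7 lost. The 3 bright ones were GPM1, ENO1 and TDH3, which encodes glyceraldehyde-3-phosphate dehydrogenase. TDH3 gave 372625 and 371168 units in the control and 5156 and 7655 in the mutant, a change of -6.18 ± 0.42. TDH1 gave 227218 and 197853 units in the control and 16.1 and 20.7 in the mutant, and TDH2 198420 and 207123 in the control and 13.6 and 5.09 in the mutant. The kept share of 29.2% lay near the 24.1% of all probes, and the bright share of 12.5% stood beside 2.08%. The median control signal of this list was 239913 units.

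Of 22 ion pump and carrier genes, 9 were kept (40.9%, beside 24.1% of all probes), and the 3 bright ones were all mitochondrial carriers: PET9, AAC1 and the phosphate carrier MIR1. MIR1 gave 96769 and 96544 units in the control and 13095 and 22859 in the mutant, a change of -2.77 ± 0.45. PMA1, the proton pump of the plasma membrane, gave 263584 and 265590 units in the control and 8.32 and 6.47 in the mutant. Of 43 genes for the respiratory chain and ATP synthase, 9 were kept (20.9%, below the 24.1% of all probes) and 3 bright (6.98%, beside 2.08%), namely ATP2, SDH2 of succinate dehydrogenase and COX9 of cytochrome oxidase. ATP1, which encodes the alpha subunit that assembles with the ATP2 product, gave 250403 and 252412 units in the control and 7.65 and 4.62 in the mutant. So of these partner subunits ATP2 was bright and ATP1 was lost. Of 15 listed mitochondrially encoded genes measured in the control, 4 were kept (26.7%) and none bright. The list leaves out Q0017, a dubious reading frame of that genome, which was bright, with 3959.9 and 3868 units in the mutant.

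Of 72 genes of amino acid synthesis, 18 were kept (25%, beside 24.1% of all probes) and 3 bright (4.17%, beside 2.08%). These were GLN1, ILV5 of branched-chain synthesis and ARO2 of aromatic synthesis. ILV5 gave 60285 and 70946 units in the control and 412 and 430.2 in the mutant, a change of -7.57 ± 0.41. Of 33 listed cell wall genes, 9 were kept (27.3%) and 3 bright (9.09%, beside 2.08%), namely ECM33, TIR1 and the glucanase EXG1. The bright cell wall genes NCW1 and 6 of the PAU family are not among the bright genes of that list. Among 36 chaperones, 18 were kept (50%), but the bright ones were only the ribosome-bound pair SSB1 and SSB2. SSB1 gave 139687 and 140459 units in the control and 214 and 1245 in the mutant, a change of -8.38 ± 0.62. SSA2, an abundant cytosolic Hsp70, gave 198155 and 218270 units in the control and 12.5 and 16.5 in the mutant.

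Among 21 cytoskeleton genes 6 were kept, and SAC6, the actin bundler fimbrin, was the bright one, with 80341 and 72605 units in the control and 9890.4 and 7332 in the mutant. ACT1, actin itself, was lost, with 187568 and 176772 units in the control and 8.09 and 6.36 in the mutant. Of 33 proteasome genes 9 were kept (27.3%) and PRE3 was bright, and of 59 ribosome biogenesis genes 20 were kept (33.9%) and SPB1 was bright. The bright shares of 3.03% and 1.69% lay near the 2.08% of all probes, and 24.1% of all probes were kept. No member was bright among 36 general transcription factors (13 kept), 12 RNA polymerase II subunits (3 kept), 32 sterol and fatty acid genes (8 kept), 32 peroxide and thiol defence genes (7 kept) and 32 carbon stress and reserve genes (8 kept). Within the transcription machinery, TAF14 gave 26864 and 26864 units in the control and 15.6 and 18.8 in the mutant. SPT15, the TATA-binding protein, gave 28614 and 28639 in the control and 8.25 and 8.25 in the mutant. RPO21, the largest polymerase subunit, gave 40413 and 41699 in the control and 14.9 and 16.5 in the mutant. On the E1A scale 682 of the 684 tested probes of the 20 lists were lower in the mutant and 0 higher, beside 99.6% of all probes lower. On the 75th percentile scale 434 of the 684 were lower and 160 higher, beside 1745 lower and 3076 higher of all 6075 probes. There, 3 of the 20 lists (general transcription factors, histones and mitochondrial genome) had more higher than lower calls, as did all probes together.

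Only 3 probes were called higher in the mutant on the E1A scale, all with low control signal. YLR076C gave 182 and 193 units in the control and 1161 and 1352 in the mutant, a rise of 5.44-fold and a log2 change of 2.44 ± 0.41 (limma adjusted p = 4.89e-06). Both mutant arrays lay above both control arrays, as they did with H2O2, where the mutant arrays gave 1436 and 1432 units. The authors' deposited table calls YLR076C a dubious reading frame that overlaps RPL10, and the probes of both genes overlap by 45 bases on opposite strands, so the gene behind the signal is uncertain. RPL10 itself gave 279509 and 277650 units in the control and 118 and 433 in the mutant, a change of -10.56 ± 0.54. YHR140W gave 318 and 311 units in the control and 525 and 1411 in the mutant, a change of 1.16 ± 0.50 (limma adjusted p = 0.0297), and the change was 2.15 without mutant replicate 1 and 0.17 without mutant replicate 2 (adjusted p = 0.715). YOR050C, also called dubious there, gave 76.9 and 81.3 units in the control and 289.8 and 109.5 in the mutant, a change of 0.88 ± 0.41 (limma adjusted p = 0.0451), and without mutant replicate 1 it was 0.45 (adjusted p = 0.33). Neither of the latter 2 calls held when either control array was left out, with adjusted p from 0.0541 to 0.185.

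The next highest changes were small falls or none. Q0017, a dubious reading frame of the mitochondrial genome, gave 3268 and 3039 units in the control and 3959.9 and 3868 in the mutant, a change of 0.02 ± 0.42 (limma adjusted p = 0.963). YIL012W, YPR050C, YOR029W and YOR139C had changes from -0.38 to -0.91, all with control signals under 300 units. Of these, YOR029W (limma adjusted p = 0.0476) and YOR139C (limma adjusted p = 0.0374) were called lower, and YIL012W and YPR050C were not called. CRC1, the carnitine carrier of mitochondria, gave 5173 and 4976 units in the control and 2811 and 2199.9 in the mutant, a change of -1.32 ± 0.46 (limma adjusted p = 0.00933, and 0.0567 without control replicate 1). Of 316 probes for reading frames that the authors' deposited table calls dubious, 59 were kept (18.7%) and 7 bright (2.22%), close to the shares of all probes. The PAU genes are a family of seripauperin cell wall proteins with near-identical sequences. Among 24 measured, 9 were kept (37.5%, beside 24.1% of all probes) and 6 bright (25%, beside 2.08%), the latter with mean mutant signals from 239 to 288 units. Their probes may read the same messages, so the 6 are not separate observations.

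The 2 mutant arrays did not match each other among bright probes. For the 40 bright probes of ribosomal protein and translation genes, replicate 2 exceeded replicate 1 by a median log2 of 2.94 on the E1A scale (range 0.57 to 4.17), with 38 of 40 above 1. For the 83 other bright probes the median was 0.77 (range -0.86 to 3.63), with 34 above 1. In units, the medians were 750.0 on replicate 1 and 4182 on replicate 2 for the former, and 412 and 455 for the latter. The replicate SD over bright probes was 1.35 in the mutant, against 0.12 for all measured probes in the control, so sizes for ribosomal genes rest on 2 arrays that disagreed by several-fold. With H2O2 the same differences between the mutant replicates were 0.61 and 0.35.

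**Figure D5:**
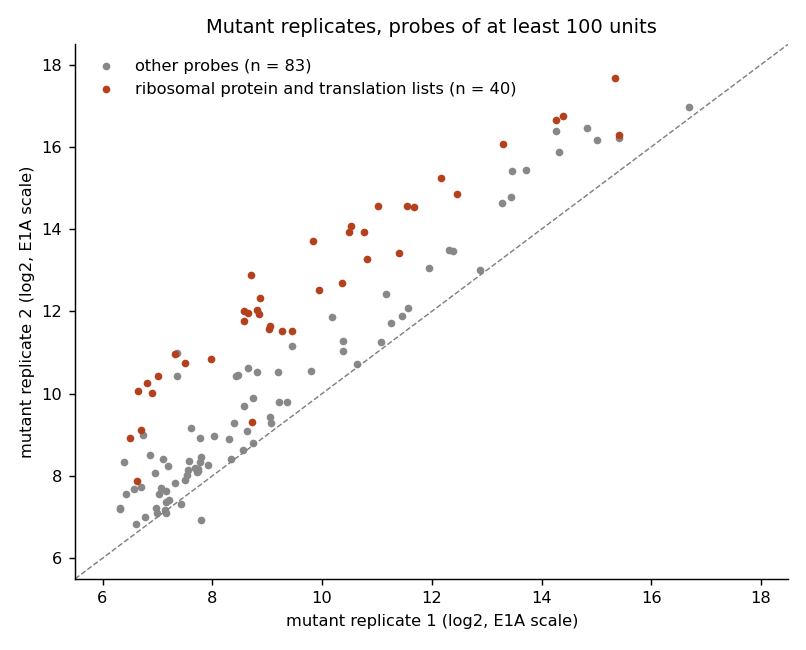
Mutant replicate 2 (y axis) against mutant replicate 1 (x axis), log2 on the E1A scale, for the 123 bright probes, with equality dashed. The 40 probes of ribosomal protein and translation genes lie above the line by a median of 2.94, and the other 83 by a median of 0.77.

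The mutant grown with 4 mM H2O2 had mostly the same bright probes. Of the 123 bright probes 122 (99.2%) were also bright there, where 152 were bright in all (80.3% shared). Of the probes well above background on both mutant arrays, 1477 without and 1338 with H2O2, 1106 were shared (74.9% and 82.7%). Mutant means in both media correlated with r = 0.98 and rho = 0.89 across the 1428 kept probes. These values describe 4 arrays and the probes they share. The difference between mutant and control changed with H2O2 at an adjusted p under 0.05 in limma's interaction test for 460 of 6075 probes towards higher (7.57%) and for 3 towards lower (0.0494%). The median probe gave 6.04 and 9.75 units on the mutant arrays with H2O2. Where mutant signal is near background in both media, such a call can come from the control arrays alone, and how many did was not tested.

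The authors' deposited table for the medium without stress gives another picture in sign. It lists 2863 probes as up and 3083 as down in the mutant, from normalized values of an experiment that the file header names as quantile. Only 1521 of those up and 1228 of those down had an authors' corrected p under 0.05. Of all those listed as up, 2855 were lower on the E1A scale. In that table GLN1 is up 15.3-fold and RPL40A up 36.1-fold, where the E1A scale has them lower by 2.36-fold and 3.14-fold. FBA1, which lost its signal in the mutant, is 10945-fold down in the authors' deposited table. Of the 2863 probes listed as up there, 1193 were well above background on both mutant arrays, beside 1477 of all 6256 probes. Being listed as up itself depends on the mutant signal, so a larger share was built in.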

How the data were processed

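Transcripts of 8 samples were measured on 1-colour Agilent arrays, 4 of them without H2O2 (2 per group, from the sample titles). The deposited scanner files, written by Feature Extraction 10.7.1.1, give an intensity per spot with other columns marking spots well above background, outliers and saturation, per the file headers. The authors' deposited table holds a p-value and a corrected p-value, an absolute fold change with its direction, and normalized log2 values per array, per the file headers. Its 12 other sample columns were not used here.

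Per array, log2 of the background-subtracted signal was averaged over the 2 spots of a probe, leaving out outlier spots and the 536 control spots (0 spots were saturated). Arrays were scaled on the mean log2 of 7 of 10 E1A probes, those well above background on all arrays. Units in the text are unscaled. A probe counts as well above background where all its spots are so marked. The 6075 probes so marked on both arrays of at least 1 of the 4 groups entered limma 3.58.1, run under R 4.3.3 (1 fit of 8 arrays, 4 residual and 18.4 prior degrees of freedom, two-sided, Benjamini-Hochberg, threshold 0.05). The spread is pooled over groups, and the p-values measure only the spread between these samples. The number of arrays, 2 per group, limits every value.

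A gene with several probes was ranked by its brightest. Of 6256 probes, 5748 matched a RefSeq gene table used for names. Gene positions are those of release R64-1-1 in the authors' deposited table. The comparison, the 20 gene lists and the rule for named genes were chosen with earlier results of these data known. The rule took SUA7, the 10 most abundant control genes kept and lost, the 10 brightest mutant genes, the 10 highest and 10 lowest changes, all genes called higher, and up to 4 members of a list by control and by mutant signal. Of the genes the rule took, 1 is not reported here. Duplicated genes outside the ribosome and others said to be were named after seeing values. In simulated data with the layout of this comparison (6075 probes, 100 changed per size), a log2 change of -1 was recovered for 9% and of -3 for 84%, with 5 false calls. These data were drawn around the control level with 1 spread per probe for all groups. The real mutant arrays were mostly near background, differed more between replicates and had nearly every probe lower. The simulated figures therefore do not describe the real comparison. Alternatives were other scalings, normexp with an offset of 50 (on median spot and background signals, in place of the planned mean signal), other filters and models, the replicate number as a block, the authors' values and leaving out arrays in turn. A planned description of promoter and probe features was not made, since no sequences were used here.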

Additional observations from a re-analysis of the deposited data

Results flagged for a closer look

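For 5 of the 29 genes that were brightest in the mutant or had the highest or lowest changes, the difference between mutant and control without H2O2 was not the one found with 4 mM H2O2, by limma's interaction test over all 6075 probes, of which 7.57% were called in the same direction. The difference was higher with H2O2 by a log2 of 2.59 for PET9 (adjusted p = 0.0259), 2.39 for YHR140W (adjusted p = 0.0381), 3.55 for CRC1 (adjusted p = 0.00202), 2.66 for HXT7 (adjusted p = 0.0235) and 3.30 for TMA10 (adjusted p = 0.0160), all from limma. For PET9 the control arrays with H2O2 gave 102229 and 144946 units and the mutant arrays 104934 and 133313. CRC1 gave 712 and 345 units in the control with H2O2 and 3052 and 2758 in the mutant. HXT7 gave 134247 and 48575 units in the control with H2O2, so the 2 control arrays differed, and 11.1 and 15.6 in the mutant, near background in both media. TMA10 likewise gave 72517 and 15885 units in the control with H2O2 and 10.6 and 18.2 in the mutant. Of other genes named in the report, SDH2 (adjusted p = 0.0101), AAC1 (adjusted p = 0.0251) and the lost genes ALD4 (adjusted p = 0.00902) and SED1 (adjusted p = 0.0318) also passed limma's interaction test. On the mutant arrays ALD4 gave 8.21 and 3.61 units without and 3.87 and 10.5 with H2O2. SED1 gave 2.51 and 2.12 without and 3.43 and 4.27 with H2O2. With mutant signal near background in both media, these 2 calls rest mainly on the control arrays. The part of the gap between control replicates in these differences was not tested.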

How the results depend on the processing

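Scalings that centre every array fix many signs by construction, while with no scaling, all E1A probes or the median over the E1A probes none of the 29 genes described below changed sign. Probes lower and higher in the mutant numbered 6051 and 3 on the E1A scale, 1745 and 3076 on the 75th percentile scale, 2015 and 2139 after quantile normalization, and 1900 and 1937 with the authors' deposited normalized values. The median change of kept probes was -9.0 on the E1A scale, 1.82 on the 75th percentile scale, -6.66 with normexp and -5.18 for probes of at least 100 units on all 4 arrays. Testing only probes measured on all 4 arrays left 1423 lower, by its smaller number of probes. The number higher was 1 at an adjusted p under 0.01 and 1 with the control arrays averaged as 1 sample. Leaving out each array in turn gave 6037 to 6052 lower, 1 to 2 higher, a median of -9.33 to -8.77, 1524 to 2485 kept probes and 56 to 70 kept among the 100 most abundant. Kept probes numbered 2406 with 1 marked spot sufficing, 307 at 20 units, 155 at the lowest well-measured control signal of 60.4 units (chosen after seeing the data) and 123 at 100 units. Of the 100 most abundant genes, 35, 29 and 26 passed those 3 limits. The replicate numbers did not pair the samples (same-number correlations from -0.071 to 0.209), and with the replicate number as a block 6049 probes were lower and 2 higher.

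The single genes tried under each setting were 29, the 10 brightest in the mutant and the 10 highest and 10 lowest changes. Their sign was reversed for 15 on the 75th percentile scale. It gave GLN1 9.59, TEF1 8.15, RPL40A 9.17, ATP2 8.98, ECM33 8.55, GPM1 7.33, TEF2 7.12, EFT2 8.06, PET9 7.87, YDR133C 6.92, YIL012W 10.44, YPR050C 10.03, YOR029W 9.95, YOR139C 9.92 and CRC1 9.51. Quantile normalization reversed 14, with GLN1 4.38, TEF1 0.49, RPL40A 5.52, ATP2 5.05, ECM33 4.32, GPM1 0.18, EFT2 3.05, PET9 2.62, YDR133C 0.25, YIL012W 8.31, YPR050C 8.19, YOR029W 8.20, YOR139C 8.03 and CRC1 7.69. The authors' deposited normalized values reversed 12, with GLN1 3.94, TEF1 0.30, RPL40A 5.17, ATP2 4.73, ECM33 3.86, EFT2 2.55, PET9 2.15, YIL012W 8.20, YPR050C 8.06, YOR029W 8.10, YOR139C 7.92 and CRC1 7.59. Leaving out each array in turn gave Q0017 changes from -0.24 to 0.28 and YIL012W changes from -0.87 to 0.11, none of them called. In the other settings none of the 29 changed sign, and the calls that were lost belonged to genes with changes between -2.67 and 1.16. The cause of these shifts was not tested beyond the scaling itself. Signal over background limits all values of the mutant arrays, where 70.5% of kept probes lay under 20 units.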
